A study of Mus musculus with 15 samples.

Results

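The troponin and tropomyosin genes of the thin filament were followed in mouse hearts bred to lose MAT1 in their muscle cells. The members are 10 genes, Tnni3, Tnni1, Tnni2, Tnnt2, Tnnt1, Tnnt3, Tnnc1, Tnnc2, Tpm1 and Tpm2, taken from the array annotation as every probe set that maps to exactly 1 of these symbols. They have 13 of the 12422 probe sets on the array. Tnnt1, Tnnc2 and Tpm2 have 2 probe sets each and the other 7 genes have 1. Cardiac RNA was measured on 15 arrays in 4 groups. CKO hearts came from αMHC-Cre+/0; MAT1F/F mice, with 4 arrays at 2 weeks and 5 arrays at 4 weeks of age. Control hearts came from αMHC-Cre+/0; MAT1F/+ littermates, with 3 arrays at each age. Every heart therefore carried Cre, driven by the α-myosin heavy chain promoter of heart muscle cells, and the control hearts kept 1 wild-type MAT1 allele. Other cell types of the heart do not use that promoter, and bulk heart RNA includes them. The labels number the samples but do not state whether each came from a separate mouse, so the spread between arrays may be partly technical.

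The thin filament is the actin cable that the myosin heads pull on, and troponin with tropomyosin is its calcium switch. Tropomyosin lies along actin and blocks myosin. Troponin T holds the troponin complex on tropomyosin, troponin I inhibits, and troponin C binds calcium and lifts the inhibition. Each subunit has isoforms from separate genes. Adult heart uses Tnni3 for troponin I and Tnnt2 for troponin T, and shares Tnnc1 for troponin C with slow skeletal muscle. Tnni1 is the slow skeletal troponin I that the fetal heart also uses before Tnni3 replaces it around and after birth. Tnnt1 is the slow skeletal troponin T, while Tnni2, Tnnt3 and Tnnc2 are the fast skeletal troponins. Tpm1 encodes α-tropomyosin, the main form of the rodent heart, and Tpm2 encodes β-tropomyosin of skeletal and smooth muscle, which the fetal heart also makes.

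Several of these genes are chromosomal neighbours. In the RefSeq table Tnni3 and Tnnt1 lie on chromosome 7 with 0 protein-coding genes between them, Tnni1 and Tnnt2 on chromosome 1 with 1 between them (Lad1), and Tnni2 and Tnnt3 on chromosome 7 with 1 between them (Lsp1). Promoter sequences from RefSeq (build GRCm38.p6) were matched by symbol for 8 members. Shown are the 250 bases before the start of the 4 genes whose probe sets differed between CKO and control at 4 weeks, 5′ to 3′ on the strand of the gene, at chr7:4522529-4522778 (minus strand) for Tnni3, chr7:4515976-4516225 (minus strand) for Tnnt1, chr1:135836084-135836333 (plus strand) for Tnnt2 and chr4:43523555-43523804 (minus strand) for Tpm2. Capitals mark matches to the motifs searched.
Tnni3: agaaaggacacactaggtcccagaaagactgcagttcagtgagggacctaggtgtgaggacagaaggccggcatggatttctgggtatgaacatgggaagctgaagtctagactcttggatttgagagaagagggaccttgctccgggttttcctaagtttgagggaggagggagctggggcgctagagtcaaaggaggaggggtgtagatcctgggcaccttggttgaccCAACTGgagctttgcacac
Tnnt1: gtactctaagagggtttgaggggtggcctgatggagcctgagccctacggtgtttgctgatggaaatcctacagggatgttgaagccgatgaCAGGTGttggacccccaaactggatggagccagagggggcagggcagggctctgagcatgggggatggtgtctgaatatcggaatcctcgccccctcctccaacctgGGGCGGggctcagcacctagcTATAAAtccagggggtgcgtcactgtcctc
Tnnt2: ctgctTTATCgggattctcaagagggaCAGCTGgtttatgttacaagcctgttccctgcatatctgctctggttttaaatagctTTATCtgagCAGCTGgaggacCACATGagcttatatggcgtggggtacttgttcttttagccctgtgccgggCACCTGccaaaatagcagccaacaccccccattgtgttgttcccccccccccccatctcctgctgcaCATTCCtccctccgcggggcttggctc
Tpm2: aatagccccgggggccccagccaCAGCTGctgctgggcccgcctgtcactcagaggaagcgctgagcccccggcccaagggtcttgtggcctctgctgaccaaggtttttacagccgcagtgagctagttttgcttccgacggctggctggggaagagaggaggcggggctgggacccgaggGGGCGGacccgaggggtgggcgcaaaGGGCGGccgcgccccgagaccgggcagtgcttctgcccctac
The motifs searched on both strands were the GATA factor letters GATAA, the MCAT letters CATTCC, the E-box CANNTG, the SP1 box GGGCGG, the TATA box TATAAA, and the MEF2 and CArG motifs by name. Neighbouring matches did not share bases in the windows shown. The Tnni3 window held 1 E-box, 19 to 14 bases before the start, and none of the other letters. The Tnnt1 window next to it held 1 E-box, 1 SP1 box and a TATA box 30 to 25 bases before the start. The Tnnt2 window held 4 E-boxes, 2 GATA matches and 1 MCAT match 27 to 22 bases before the start. The Tpm2 window held 1 E-box and 2 SP1 boxes. Of all 32851 windows in the RefSeq table, 66.2% held an E-box, 32.7% an SP1 box, 22.6% the GATA letters, 12.6% the MCAT letters, 12.4% the TATA letters, 2.92% the MEF2 motif and 1.47% the CArG motif. All 8 members had an E-box, 4 had the SP1 box, 3 the MCAT letters (Tnnt2, Tnnc1 and Tpm1), 1 the GATA letters, 1 the TATA letters and 0 the MEF2 or CArG motif. A match is a stretch of letters and not a measured binding site.

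Values are deposited intensities, the brightness of a probe set on a linear scale. The median intensity of an array ranged from 173.7 to 216.8. The arrays fell into 2 array sets by their correlation over probe sets that are no members, with 6 arrays in set 1 and 9 in set 2, and both sets held arrays of every group. The labels name no batch, so set is used only as a grouping found in the data. By Xist and Uty 4 of 5 CKO hearts but 1 of 3 control hearts at 4 weeks came from females. At 2 weeks 1 of 4 CKO hearts and 1 of 3 control hearts did. The comparison of ages in CKO hearts and the difference between the CKO effects are thus also unbalanced for sex. The 2 probe sets of the targeted gene, named Mnat1 on the array, overlapped between CKO and control at both ages. At 4 weeks the brighter one ranged from 86.0 to 243.8 in control and from 140.7 to 314.3 in CKO, and the part of the transcript that the deletion removes relative to these probes is not known here, so they check nothing.

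Intensity placed the heart isoforms at the top of the array. Tnni3, Tnnt2 and Tnnc1 were at the 99.95, 99.92 and 99.86 percentiles of all probe sets by mean intensity, so 3 member probe sets lay in the upper 1%. At the other end 4 member probe sets lay in the lower 40%: Tnnt3 (16.27 percentile), Tnni2 (20.34 percentile), the second Tpm2 probe set (23.82 percentile) and the second Tnnt1 probe set (36.19 percentile). Different probe sets bind with different strength, so these ranks describe signal and not relative transcript number.

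**Figure D1:**
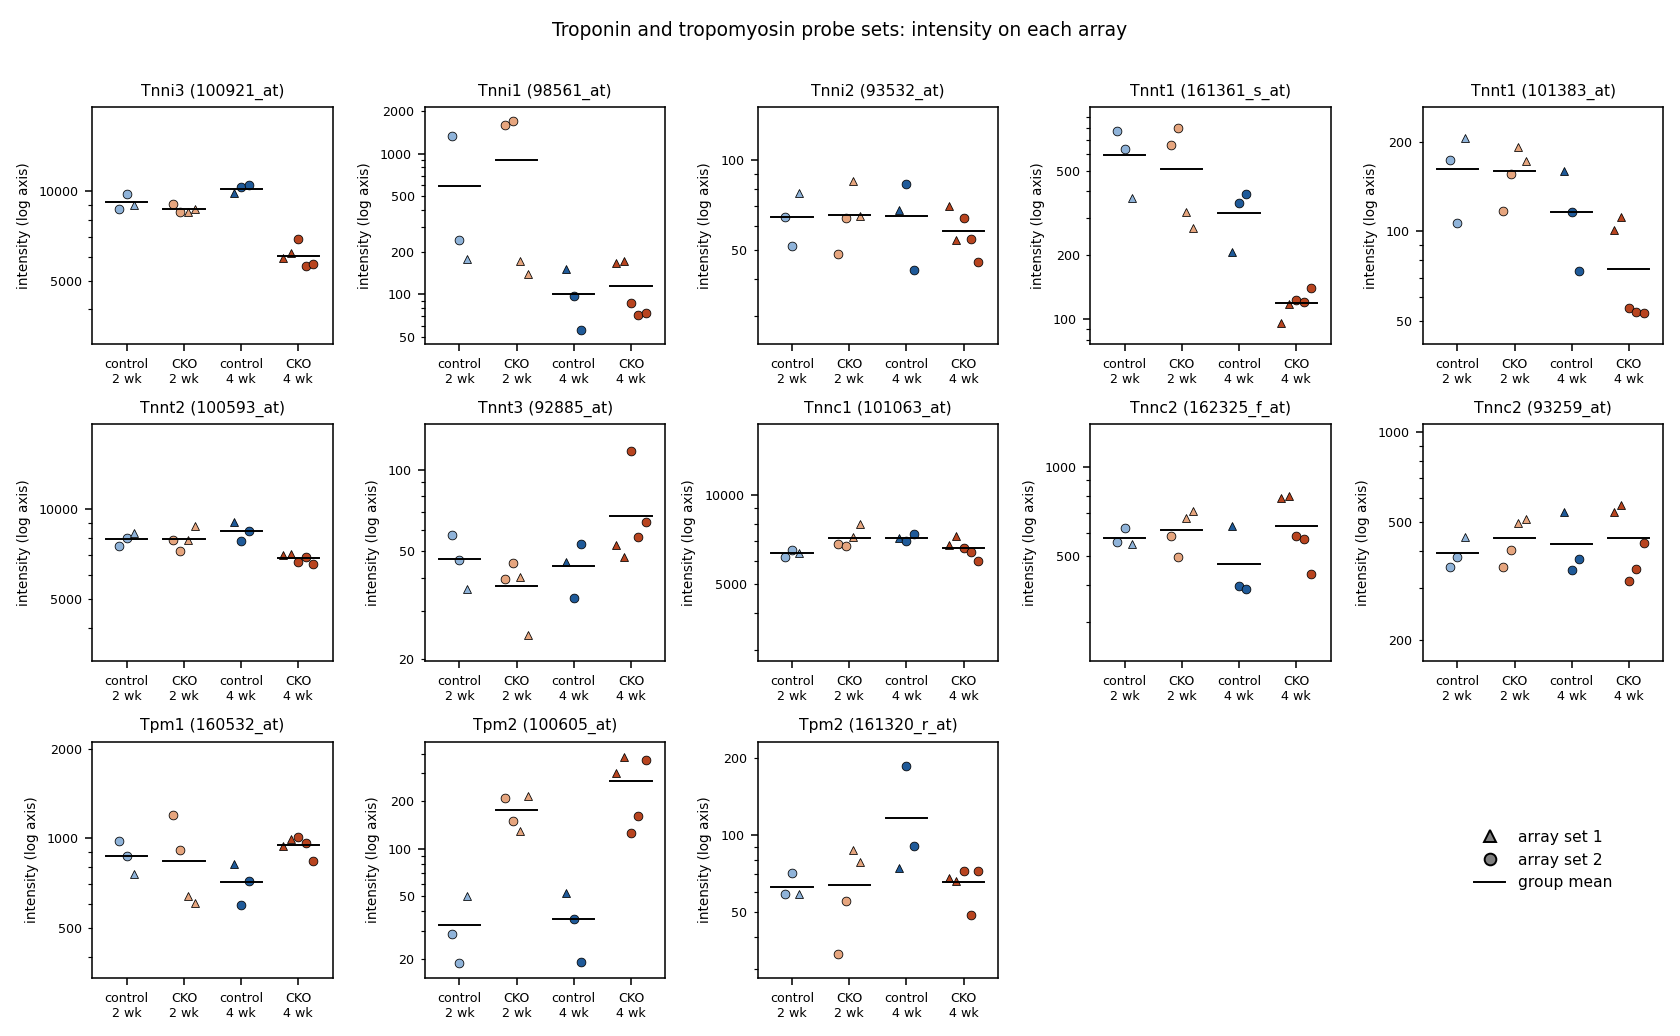
Intensity (log axis) of the 13 troponin and tropomyosin probe sets on each of the 15 arrays, by group, with triangles for array set 1, circles for array set 2 and a bar at the group mean. The 5 CKO arrays at 4 weeks lie below all other arrays for Tnni3, at 5594.8 to 6873.2, and every CKO array lies above every control array for Tpm2 (100605_at).

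The first question was how the thin filament switch of CKO hearts differed from that of control hearts by 4 weeks. Tnni3, Tnnt2 and Tnnt1 were lower in CKO hearts, with Tnni3 at 0.594 of the control level, Tnnt2 at 0.81 and Tnnt1 at 0.419 by 1 of its 2 probe sets, and Tpm2 was 5.22-fold higher by 1 of its 2 probe sets. The Tnnt2 and Tnnt1 calls were lost when certain single arrays were left out. Changes are differences of log2(intensity + 16) with standard errors from limma fitted to all 12422 probe sets, and a call is a Benjamini-Hochberg adjusted p under 0.05 over all of them. Of the 13 member probe sets 1 was called higher and 3 lower, where 6.27% of all probe sets were called (3.86% higher and 2.42% lower). The groups did not overlap for 6 of 13 member probe sets, against 12.9% of all probe sets. The median size of the member differences was 0.42, against 0.22 over all probe sets, and the median of all signed differences was 0.07. Fewer muscle cells and less RNA per muscle cell cannot be told apart in bulk heart RNA, and this holds for every value below.

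Tnni3, the adult heart troponin I whose phosphorylation speeds relaxation, read 9811.9, 10280.4 and 10472.3 in control hearts at 4 weeks. In CKO hearts at 4 weeks it read 5964.8, 6187.7, 6873.2, 5594.8 and 5682.0. The highest CKO array was thus well below the lowest control array. The difference was -0.75 ± 0.07 (limma, adjusted p = 5e-05, 95% interval -0.91 to -0.59), and it ranked 15 among all probe sets by p. It was -0.69 within array set 1 and -0.78 within set 2.

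Tnnt2, the heart troponin T, read 9060.0, 7847.7 and 8462.8 in control hearts and 7041.2, 7064.3, 6638.3, 6889.8 and 6574.0 in CKO hearts at 4 weeks. The groups again did not overlap, but the gap was narrow. Tnnt2 fell by 0.30 ± 0.07 (limma, adjusted p = 0.0241, 95% interval -0.46 to -0.14). The call was lost without control replicate 1 (adjusted p = 0.102), control replicate 3 (adjusted p = 0.0939), CKO replicate 3 (adjusted p = 0.0533) or CKO replicate 5 (adjusted p = 0.0505) of the 4-week groups. It was also lost in a fit of the 4-week arrays alone (adjusted p = 0.0666) and with replicate number as a block (adjusted p = 0.108). Within set 1 the difference was -0.36. Blocking on array set gave an adjusted p of 0.000166.

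Tnnc1, the calcium-binding subunit of heart and slow muscle, read 7176.6, 6994.4 and 7364.6 in control and 6778.5, 7260.5, 6628.6, 6412.1 and 5974.7 in CKO hearts at 4 weeks. The groups overlapped, through CKO replicate 2. The difference of -0.12 ± 0.08 was not called (limma, adjusted p = 0.53, 95% interval -0.29 to 0.04). The heart subunits therefore differed in how far their probe sets moved on the same arrays. The within-array difference Tnni3 minus Tnnc1 went from 0.50 ± 0.05 (SD, n = 3) in control hearts to -0.13 ± 0.12 (SD, n = 5) in CKO hearts, a change of -0.63 with no overlap. Tnni3 minus Tnnt2 changed by -0.45, also with no overlap. Tnnt2 minus Tnnc1 changed by -0.18, with no overlap. These within-array differences are descriptions with no test, and they show unequal change of the probe sets.

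Tnnt1, the slow skeletal troponin T, has 2 probe sets. The brighter one, 161361_s_at, read 205.9, 351.7 and 388.3 in control and 95.3, 117.8, 123.4, 119.9 and 139.3 in CKO hearts at 4 weeks. All CKO arrays were below all control arrays, and the CKO arrays were close together. The difference was -1.25 ± 0.34 (limma, adjusted p = 0.0424), -0.86 within set 1 and -1.43 within set 2. The call was lost without control replicate 2 (adjusted p = 0.188) or 3 (adjusted p = 0.196) at 4 weeks and without control replicate 2 at 2 weeks (adjusted p = 0.0583). It was lost without any 1 of the 5 CKO arrays at 4 weeks (adjusted p = 0.0597 to 0.084). It was also lost after quantile normalization (adjusted p = 0.0541) or median scaling (adjusted p = 0.083), with a pseudocount of 64 (adjusted p = 0.0654) and with replicate number as a block (adjusted p = 0.177). Blocked on array set, it was -1.20 ± 0.18 (adjusted p = 0.000158). For the second probe set, 101383_at, the control arrays read 160.0, 116.0 and 73.7 and the CKO arrays 101.0, 111.7, 55.2, 53.8 and 53.1. Its groups overlapped, and within each group the set 1 arrays were the brighter ones. Its difference of -0.55 ± 0.29 was not called (adjusted p = 0.404) but was after blocking on array set (-0.59 ± 0.17, adjusted p = 0.0189). Under that block the member calls were 1 higher and 4 lower, where 22.2% of all probe sets were called (14.5% higher and 7.7% lower).

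Tpm2, β-tropomyosin, was the only member called higher. Probe set 100605_at read 52.7, 35.9 and 19.1 in control and 303.5, 382.2, 126.4, 160.1 and 363.0 in CKO hearts at 4 weeks. The lowest CKO array was above the highest control array, and the CKO arrays spread from 126.4 to 382.2. The difference was 2.38 ± 0.36 (limma, adjusted p = 0.00108, 95% interval 1.61 to 3.15), 2.38 within set 1 and 2.31 within set 2. It was called in each of the 12 alternative settings that fitted it and without each of the 15 arrays in turn, between 2.13 and 2.61. The probe set is dim in control hearts. Over all arrays it stood at the 41.51 percentile by mean intensity and at the 33.88 percentile by mean log2(intensity + 16), the mean on which the filter of low values rests, so that filter left it out.

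The second Tpm2 probe set did not show this rise. Probe set 161320_r_at read 74.2, 185.2 and 90.4 in control and 67.7, 65.7, 72.4, 48.6 and 71.9 in CKO hearts at 4 weeks. All CKO arrays lay just below the lowest control array, the opposite order to 100605_at. The difference of -0.63 ± 0.27 was not called (adjusted p = 0.25), and without control replicate 2, the array at 185.2, it was -0.28 ± 0.26 (adjusted p = 0.877). The suffix _r marks a probe set for which some of the design rules for probes were dropped, and _s and _f mark probe sets whose probes also fit related sequences. The Tpm2 result therefore rests on 1 probe set, and its other probe set is against it in sign.

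Tpm1, α-tropomyosin of the heart, read 819.3, 599.0 and 720.9 in control and 943.1, 997.0, 1011.4, 962.4 and 840.2 in CKO hearts at 4 weeks. The CKO arrays were all above the control arrays, by a small gap. The difference of 0.42 ± 0.20 was not called (limma, adjusted p = 0.32, 95% interval -0.01 to 0.84). Within set 2 it was 0.50 (adjusted p = 0.0438).

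The remaining skeletal isoforms were not called at 4 weeks. Tnni1, the slow skeletal and fetal troponin I, differed by 0.15 ± 0.81 (limma, adjusted p = 0.985, 95% interval -1.59 to 1.90). The interval rests on 1 spread shared by all 4 groups, which for Tnni1 includes its wide spread at 2 weeks. Its 4-week arrays ranged from 55.6 to 151.1 in control and from 71.6 to 172.1 in CKO hearts. Tnni2 differed by -0.11 ± 0.21 (adjusted p = 0.93) and Tnnt3 by 0.43 ± 0.24 (adjusted p = 0.441). For Tnnc2, the fast skeletal troponin C, probe set 162325_f_at differed by 0.42 ± 0.21 (adjusted p = 0.378) and 93259_at by 0.06 ± 0.22 (adjusted p = 0.977). The dim Tnni2 and Tnnt3 probe sets ranged over all 15 arrays from 42.8 to 85.2 and from 24.6 to 117.3. The Tnnc2 probe sets were brightest on set 1 arrays in both 4-week groups: 162325_f_at read 630.4 on the set 1 control array and 786.7 and 795.2 on the set 1 CKO arrays.

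**Figure D2:**
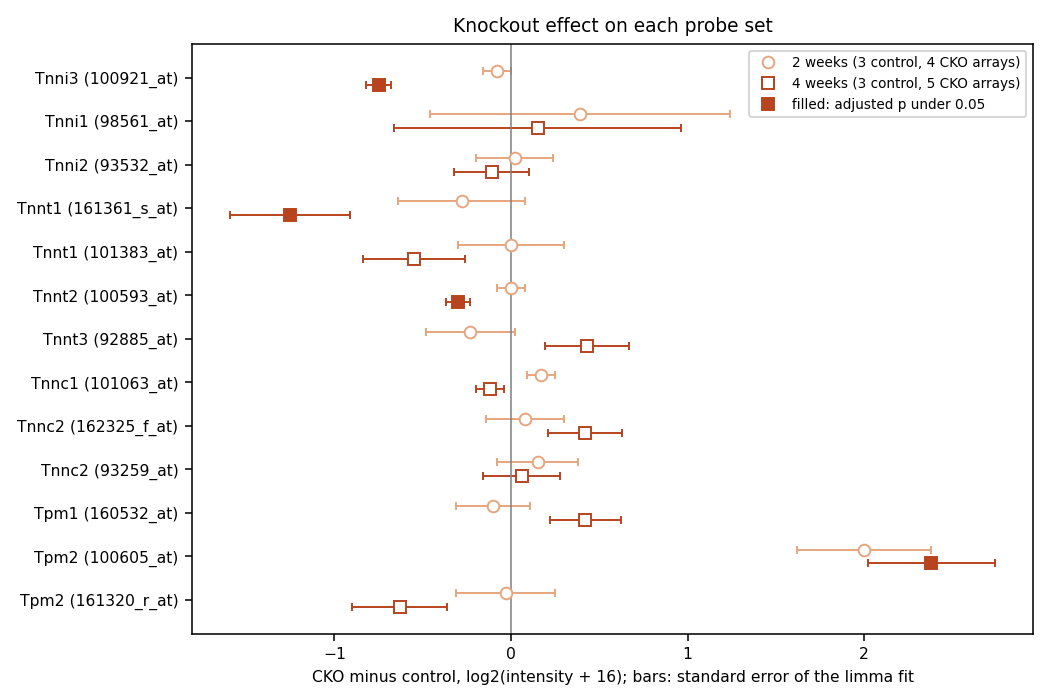
CKO minus control difference of log2(intensity + 16) for each of the 13 probe sets at 2 weeks (circles) and 4 weeks (squares), with bars of 1 standard error and filled symbols for an adjusted p under 0.05. Only Tnni3, Tnnt2, Tnnt1 (161361_s_at) and Tpm2 (100605_at) have a filled symbol, at 4 weeks, and the 2-week Tpm2 value of 2.00 is nearly as far from 0 as its 4-week value of 2.38.

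At 2 weeks no member was called, and 0.00805% of all probe sets (1 probe set, of Acta1) were. At an unadjusted p under 0.05 there were 2 members, Tpm2 and Tnnc1, and 1.04% of all probe sets. The median size of the member differences was 0.1, against 0.12 over all probe sets. The groups did not overlap for 2 of 13 members, against 2.25% of all probe sets, and these were again Tpm2 and Tnnc1.

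Tpm2 (100605_at) read 28.9, 18.8 and 50.3 in control and 209.0, 150.0, 129.0 and 217.1 in CKO hearts at 2 weeks. Every CKO array was above every control array, as at 4 weeks. The difference was 2.00 ± 0.38, or 4.01-fold, and it ranked 2 among all probe sets by p (adjusted p = 0.547 in limma). Blocked on array set, it was 1.92 ± 0.30 and called higher (adjusted p = 0.0226), as the only member among 7 called probe sets (0.0564% of all, with 0.0483% called higher). It was 1.47 within set 1 and 2.29 within set 2. The difference between its effects at 4 and 2 weeks was 0.38 ± 0.52 (adjusted p = 1, 95% interval -0.74 to 1.49). For the second Tpm2 probe set the control arrays read 58.6, 71.0 and 58.5 and the CKO arrays 34.3, 55.3, 87.4 and 78.2. Its groups overlapped, with a difference of -0.03 ± 0.28 (adjusted p = 1).

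Tnnc1 read 6157.9, 6542.8 and 6370.2 in control and 6809.0, 6741.8, 7208.9 and 7956.9 in CKO hearts at 2 weeks. The CKO arrays were all higher, by a margin that is small beside their own spread. The difference was 0.17 ± 0.08 (limma, adjusted p = 1, 95% interval 0.00 to 0.34). Tnni3 read 8721.0, 9750.2 and 8987.6 in control and 9038.6, 8491.5, 8476.2 and 8710.1 in CKO hearts at 2 weeks. These groups overlapped, with a difference of -0.08 ± 0.08 (adjusted p = 1, 95% interval -0.24 to 0.09). Tnnt2 differed by 0.00 ± 0.08 (adjusted p = 1, 95% interval -0.17 to 0.17). The within-array difference Tnni3 minus Tnnc1 changed by -0.25 at 2 weeks, from 0.52 ± 0.04 (SD, n = 3) in control to 0.28 ± 0.12 (SD, n = 4) in CKO hearts, with no overlap. Tnnt2 minus Tnnc1 changed by -0.17 at 2 weeks, also with no overlap, beside the -0.18 at 4 weeks.

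The effects at both ages were then compared directly. For Tnni3 the CKO effect at 4 weeks minus that at 2 weeks was -0.68 ± 0.11 (limma, adjusted p = 0.0109), the only member called, where 0.531% of all probe sets were (0.258% lower). Its call was lost after quantile normalization (-0.53, adjusted p = 0.0527), after median scaling (adjusted p = 0.204), within set 1 (adjusted p = 0.0895) and with a replicate block (adjusted p = 0.0952). It was also lost without control replicate 3 at 4 weeks (adjusted p = 0.0539) or control replicate 1 at 2 weeks (adjusted p = 0.0576). Its sign was the same in each. Under the array set block its adjusted p was 0.000278. That block also called lower Tnnt2 (-0.29 ± 0.07, adjusted p = 0.0196), Tnnc1 (-0.28 ± 0.08, adjusted p = 0.0468) and Tnnt1 161361_s_at (-1.05 ± 0.26, adjusted p = 0.0295), and 5.5% of all probe sets (2.21% lower). Without the block these had adjusted p = 0.41, 0.48 and 0.823.

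Change with age was asked next, since the troponin isoforms of the mouse heart are still maturing after birth. The age comparisons share arrays with the CKO comparisons, so the values stand side by side only. In control hearts no member was called between 2 and 4 weeks, where 0.338% of all probe sets were. At an unadjusted p under 0.05 there were 2 member probe sets, Tnnt1 161361_s_at and Tpm2 161320_r_at, and 5.41% of all probe sets. Groups without overlap were found for 4 of 13 member probe sets, against 8.7% of all. Tnni3 differed by 0.16 ± 0.08 (adjusted p = 1) and Tnnt1 161361_s_at by -0.86 ± 0.38 (adjusted p = 0.897). Under the array set block that Tnnt1 difference was called (adjusted p = 0.0312), where 2.97% of all probe sets were (1.39% lower).

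In CKO hearts 2 member probe sets fell from 2 to 4 weeks, where 3.33% of all probe sets were called (1.27% lower). Of the 13 member probe sets 5 had groups without overlap, against 7.24% of all. Tnni3 fell by 0.52 ± 0.07 (limma, adjusted p = 0.000613). Its order over the groups was highest in control at 4 weeks, lowest in CKO at 4 weeks, and in between at 2 weeks, where control and CKO overlapped. Control hearts at 4 weeks lay above those at 2 weeks on every array, by a difference that was not called. Tnnt1 161361_s_at read 659.0, 798.4, 318.4 and 267.3 in CKO hearts at 2 weeks, against the 95.3 to 139.3 of CKO hearts at 4 weeks, and 766.7, 634.8 and 371.1 in control hearts at 2 weeks. At 2 weeks the set 1 arrays were the low ones in both groups. The fall in CKO hearts was 1.83 on the log2 scale (-1.83 ± 0.31, adjusted p = 0.00433), -1.33 within set 1 and -2.37 within set 2. Under the array set block 5 member probe sets were called lower, where 14.3% of all probe sets were called (5.74% lower). The others were Tnnt1 101383_at (-0.92 ± 0.16, adjusted p = 0.000658), Tnnt2 (-0.20 ± 0.04, adjusted p = 0.00453) and Tnni1 (-2.20 ± 0.67, adjusted p = 0.0369). Without the block they had adjusted p = 0.0628, 0.125 and 0.184. With inferred sex as a further block the age difference in CKO hearts was -0.51 ± 0.06 for Tnni3 (limma, adjusted p = 8.74e-05). For Tnni1 it was -3.09 ± 0.56 (adjusted p = 0.00168).

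At 2 weeks Tnni1 varied more within groups than any other member. The control arrays read 1334.2, 242.5 and 179.6, and the CKO arrays 1603.8, 1713.7, 174.1 and 139.6. At 4 weeks the control arrays read 151.1, 96.9 and 55.6, and the CKO arrays 167.0, 172.1, 87.6, 71.6 and 74.4. Control replicate 1 and CKO replicates 1 and 2 at 2 weeks thus stood far above the others, and all 3 belong to set 2, as does control replicate 2 at 242.5. The age difference in CKO hearts was 0.11 within set 1 and -4.16 within set 2, and in control hearts -0.23 and -2.72. In control hearts over both sets it was -1.89 ± 0.91 (limma, adjusted p = 0.978). The coefficient of variation of Tnni1 at 2 weeks was 110.9% in control and 95.7% in CKO hearts, against 5.8% and 3.0% for Tnni3.

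Genes were then ranked by how like those of Tnni1 their values were over the 15 arrays. Sharing its high arrays therefore follows from the choice of the first 3 genes. They were Phldb2 (Pearson's r = 0.927), Kcne1, a potassium channel subunit (r = 0.913), and Cd93, an endothelial surface receptor (r = 0.9), among 4950 genes of the upper 60% by mean log2(intensity + 16). After the mean of each array set was taken out they were again the first 3, with r = 0.94, 0.91 and 0.897. Kcne1 read 1639.86, 695.27 and 315.31 in control and 1212.93, 1624.16, 250.8 and 301.81 in CKO hearts at 2 weeks, so its 3 highest arrays were those of Tnni1. At 4 weeks no Kcne1 array exceeded 148. The split of Cd93 was less clear than that of Tnni1. On control replicates 1 and 2 at 2 weeks Cd93 read 1905.44 and 1695.5, where Tnni1 read 1334.2 and 242.5. These correlations are descriptions over arrays that share groups and array sets, and no p is given.

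**Figure D3:**
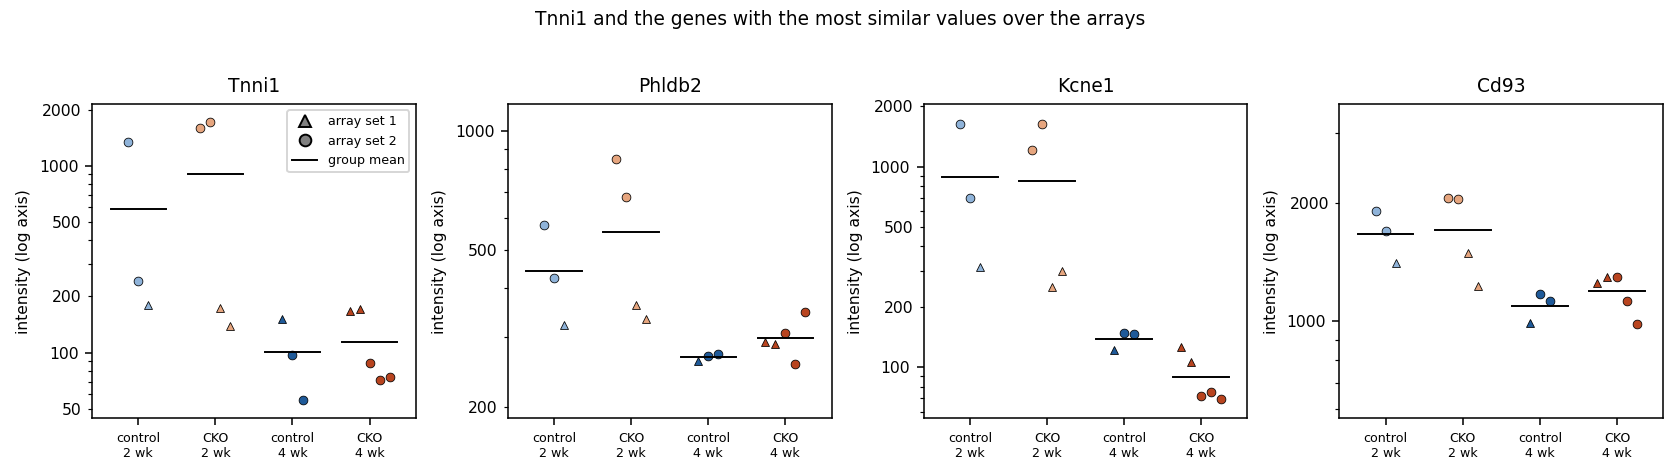
Intensity (log axis) of Tnni1, Phldb2, Kcne1 and Cd93 on each array, by group, with triangles for array set 1, circles for array set 2 and a bar at the group mean. The 3 arrays at 2 weeks with Tnni1 between 1334.2 and 1713.7 are also the 3 highest for Phldb2, Kcne1 and Cd93.

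The values most like those of Tnni3 were of Gja1, the main ventricular gap junction gene (r = 0.965), Fkbp4 (r = 0.961) and Slc25a4, the heart ADP/ATP carrier (r = 0.956). With array set means removed they were Myh6, the adult heart myosin heavy chain (r = 0.976), Tcea3 (r = 0.974) and Gja1 (r = 0.967). Gja1 was picked for values like those of Tnni3, which was lower in CKO hearts at 4 weeks, so a lower Gja1 there follows from the choice. By its brighter probe set Gja1 fell by 1.36 ± 0.09. For Tnnt2 the genes were Crygd (r = 0.924), Cd36 (r = 0.924) and Rufy1 (r = 0.921), and with set means removed Pygb (r = 0.959), Acadm (r = 0.957) and Scp2 (r = 0.936), of which Cd36 and Acadm serve fatty acid uptake and oxidation. For Tpm2 100605_at they were Nrbp1 (r = 0.895), Cdkn2aipnl (r = 0.87) and Cyb5r1 (r = 0.87), and with set means removed Prkca (r = 0.909), Zfp277 (r = 0.9) and Nrbp1 (r = 0.893). These are again descriptions over 15 arrays with shared groups, and moving with the member follows from the choice of the genes.

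Skeletal isoforms were then set against the heart isoform of the same subunit on each array, by the probe set of each gene with the highest mean over all 15 arrays. They are descriptions, with no share of other probe set pairs to read them against. At 4 weeks the Tnni2, Tnnt3, Tnnt1 and Tpm2 differences had no overlap between CKO and control, and they did not all move the same way. Tnni2 minus Tnni3 changed by 0.64, from -7.01 ± 0.41 (SD, n = 3) to -6.37 ± 0.16 (SD, n = 5). Tnnt3 minus Tnnt2 changed by 0.74, from -7.15 ± 0.19 to -6.41 ± 0.46. In both pairs the skeletal probe set is dim and was not called, while the heart isoform fell. Tnnt1 minus Tnnt2 changed the other way, by -0.95, from -4.72 ± 0.55 to -5.67 ± 0.21. Tpm2 minus Tpm1 changed by 1.97, from -3.85 ± 0.47 to -1.89 ± 0.74, by Tpm2 100605_at. That probe set has the higher mean only through the CKO arrays. In control hearts its mean was 32.7 at 2 weeks and 35.9 at 4 weeks, against 62.7 and 116.6 for 161320_r_at. The Tpm2 pair changes thus rest on the rise of 100605_at, while 161320_r_at was lower in CKO hearts at 4 weeks, without a call. Tnni1 minus Tnni3 (0.91) and Tnnc2 minus Tnnc1 (0.54) overlapped between the groups. At 2 weeks Tpm2 minus Tpm1 had no overlap, with a change of 2.11 from -4.23 ± 0.60 (SD, n = 3) to -2.13 ± 0.49 (SD, n = 4).

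**Figure D4:**
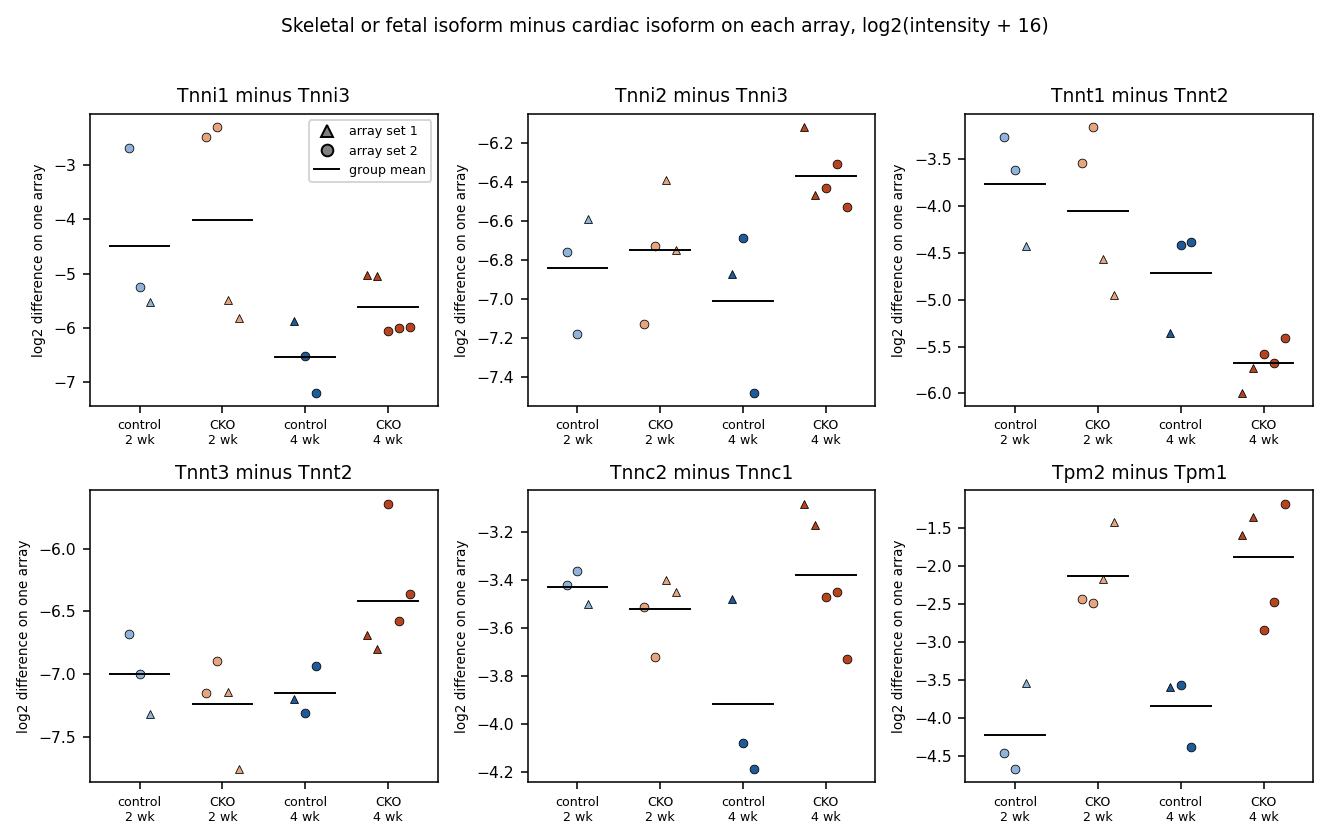
Difference of log2(intensity + 16) between the skeletal or fetal isoform and the heart isoform of the same subunit on each array, by group, with triangles for array set 1, circles for array set 2 and a bar at the group mean. Tpm2 minus Tpm1 is higher on every CKO array than on any control array of the same age, and Tnnt1 minus Tnnt2 is lower on all 5 CKO arrays at 4 weeks than on the control arrays of that age.

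Other genes of the contractile apparatus give the setting of these changes at 4 weeks. Of 10 other thin filament genes on the array 3 rose and 0 fell, with a median of 0.46 against 0.07 over all probe sets: the skeletal actin gene Acta1 (0.65 ± 0.12, adjusted p = 0.00363), the non-sarcomeric tropomyosin gene Tpm4 (0.91 ± 0.20, adjusted p = 0.013) and, named after its values were seen, Xirp1 (1.04 ± 0.24, adjusted p = 0.0194). The slow skeletal tropomyosin gene Tpm3 differed by -0.14 ± 0.14 (adjusted p = 0.774) and the heart actin gene Actc1 by 0.09 ± 0.07 (adjusted p = 0.692). Acta1 was also called at 2 weeks (1.36 ± 0.12, adjusted p = 0.000256). Of 17 thick filament genes 1 rose and 3 fell (median -0.07): Myl1 (2.85 ± 0.56), a fast skeletal myosin light chain gene, rose, and Myom2 of the M-band (-1.77 ± 0.23), embryonic myosin Myh3 (-1.37 ± 0.23) and Myh6 (-0.39 ± 0.08) fell. Of 17 genes for enzymes that modify or cleave troponin 2 rose and 0 fell (median 0.35): Prkca, the protein kinase C α that phosphorylates troponin I and T (1.01 ± 0.14, adjusted p = 0.00075), and Prkacb, a catalytic subunit of protein kinase A (0.45 ± 0.10, adjusted p = 0.0158). Prkaca, the other catalytic subunit on the list, named after its values were seen, had a difference of -0.36 ± 0.16 that was not called (adjusted p = 0.26). After blocking on array set, where 14.5% of all probe sets were called higher and 7.7% lower, the thin filament list had 6 higher and 0 lower, the thick filament list 1 and 5, and the enzyme list 8 and 1. The 1 lower enzyme gene was Prkaca (-0.37, adjusted p = 0.00824).

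Markers of 5 cell types were set beside the 4-week results, and the lists did not all move. Of 14 ventricular muscle markers 0 rose and 7 fell (median -0.30), with the smallest p for Hrc (-1.57 ± 0.12) and myoglobin (Mb, -0.52 ± 0.07). Myl2 (-0.04 ± 0.06, limma, adjusted p = 0.858) and Myl3 (-0.12 ± 0.10, adjusted p = 0.727), named after their values were seen, were not called. The summed intensity of the 14 markers was 91473 to 100197 in control and 78219 to 86076 in CKO hearts. Of 19 fibroblast and matrix markers 16 rose and 0 fell (median 1.20), with the smallest p for Mfap5 (2.36 ± 0.24) and Lum (1.01 ± 0.11) and sums of 15460 to 17182 and 33266 to 45556. Of 14 smooth muscle and pericyte markers, cell types that make β-tropomyosin, 2 rose (Acta2, 1.01 ± 0.19, and, named after its values were seen, Cnn1, 1.45 ± 0.33) and Abcc9 fell (-1.90 ± 0.23), with a median of 0.27 and overlapping sums of 11778 to 12976 and 12646 to 17877. Of 21 skeletal muscle markers 1 rose, Myl1, and 0 fell, with a median of 0.11. Their sums were 16982 to 18029 and 21103 to 23866, while the mean of Myl1 alone went from 914.8 to 5777. The other skeletal markers ranged widely in signal. Over the 4 groups the mean was at most 5.4 for Ryr1 and 13.1 to 17.6 for Myh1. It was 423.3 to 508.1 for Myh4, 517.2 to 608.9 for Myog, 928.6 to 1070.1 for Pvalb and 1215 to 2817.2 for Casq1. Ckm (1674.5 to 2619.4), Pygm (2604.7 to 3106.3) and Eno3 (5258.8 to 6294.3) were also bright and enter these sums in every group. All of these were named after their values were seen. Of 9 atrial markers 2 rose, Nppa (2.00 ± 0.33) and Dkk3 (1.62 ± 0.28), and 1 fell, Stard10, named after its values were seen (-0.89 ± 0.16). Their median was 0.00 (0.31 within set 1 and -0.30 within set 2), and their sums were 5014 to 5450 and 9370 to 12484, while the mean of Nppa alone went from 1542.4 to 6260.6. Under the array set block the counts higher and lower were 2 and 3 for the atrial list, 2 and 1 for the skeletal list, 6 and 1 for the smooth muscle list, 18 and 0 for the fibroblast list and 1 and 9 for the ventricular list. The part of these cell types in the changes of Tnni3, Tnnt2, Tnnt1 and Tpm2 was not tested. At 2 weeks no marker of any of the 5 lists was called, where 0.00805% of all probe sets were. After blocking on array set 1 was, Nppa (1.85, adjusted p = 0.000203), where 0.0564% of all probe sets were. With so few calls over the array, these counts do not show that cell types were unchanged at 2 weeks. The smooth muscle sums at 2 weeks were 13002 to 16318 in control and 15359 to 20357 in CKO hearts, on the arrays where Tpm2 100605_at did not overlap. After blocking on both array set and inferred sex, the 4-week difference was -0.74 ± 0.07 for Tnni3 (adjusted p = 2.24e-06) and 2.42 ± 0.31 for Tpm2 (adjusted p = 6.36e-05).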

How the data were processed

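Total RNA of mouse hearts was extracted with Trizol and columns and labelled with biotin, per the labels' protocols, and hybridised to 15 1-colour arrays. The authors deposited an intensity for every probe set of every array, not on a log scale, with a lowest value of 0.95. No source used here states how those intensities were extracted, background-corrected and scaled, nor the genome build behind the probes. Of 12422 probe sets 10833 carry 1 gene symbol in the platform annotation, 396 several and 1193 none. Groups came from the sample titles. The members and gene lists were chosen with earlier results of these data known.

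From the deposited intensities log2(intensity + 16) was computed, with no further normalization, and fitted with limma 3.58.1 (R 4.3.3; lmFit, and eBayes with trend, two-sided) over all probe sets with a coefficient for each of the 4 groups, giving 5 comparisons. P-values were adjusted by Benjamini-Hochberg over all 12422 probe sets. The pseudocount of 16 makes a fold change understate the change of dim probe sets. The script was tested on simulated data. Array sets came from average-linkage clustering of correlations (lowest within a set 0.937, highest between sets 0.924). Alternatives were quantile normalization, median scaling, pseudocounts of 1 and 64, the upper 60% of probe sets by mean log2(intensity + 16), array set as a block or 1 set alone, inferred sex, replicate number, the compared groups alone, and leaving out each array.

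Named were all member probe sets, from each list the 2 genes with the smallest p at 4 weeks that were called (by the brightest probe set of each gene), any gene a result turns on, and, for Tnni3, Tnni1 and the 2 further member genes with the smallest p at 4 weeks, the 3 genes with the highest Pearson r over the arrays, with and without array set means removed, among genes in the upper 60% by that mean. The number of arrays, 3 to 5 per group, limits the precision. Motifs were searched in the 250 bases before the start, and the 50 bases after it in the table were not used. Tnni2 and Tnnt3 have no promoter printed or searched.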

Additional observations from a re-analysis of the deposited data

Results flagged for a closer look

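In the 26 groups of 4 or 5 arrays tested for a far value, 2 member values stood out, where chance gives about 1 in 20. For Tnnt3 the highest CKO array at 4 weeks, replicate 3, read 117.3 with the next at 64.3, a gap of 0.761 of the group's range. For Tpm2 161320_r_at the lowest CKO array at 4 weeks, replicate 4, read 48.6 with the next at 65.7, a gap of 0.718 of the range. The CKO effect on Tnni3 at 4 weeks minus that at 2 weeks was -0.68 ± 0.11 (limma, adjusted p = 0.0109). It is listed because that test called it, and the call was lost under several of the settings given above.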

How the results depend on the processing

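Over 12 or 13 alternative settings, Tnni3 at 4 weeks ranged from -0.84 to -0.69 (limma, adjusted p = 4.08e-07 to 0.0133) and Tpm2 100605_at from 1.66 to 2.84 (adjusted p = 2.34e-05 to 0.0201). Both kept their call in each. Tpm2 100605_at was not fitted among the upper 60% by mean log2, which held 8 of the 13 member probe sets. The 4 member calls at 4 weeks were 2 to 4 without 1 array, and 2 without control replicate 3, CKO replicate 3 or CKO replicate 5. The 0 calls at 2 weeks became 1 under the array set block, alone or with quantile normalization, inferred sex or the replicate number, and stayed at 0 without each array. The 1 call of the difference between ages became 4 under the array set block, 3 with that block and quantile normalization, inferred sex or replicate number, 2 within set 2, and 0 within set 1, after quantile normalization or after median scaling. It was 0 to 1 without 1 array, and 0 without control 4 wk replicate 3 or control 2 wk replicate 1. The 0 age calls in control became 1 under the array set block, alone or with quantile normalization or inferred sex, 2 within set 2 and 2 with the replicate number and array set as blocks, and 0 without each array. The 2 age calls in CKO became 5 under the array set block, alone or with quantile normalization or inferred sex, 4 within set 1, 4 within set 2 and 6 with the replicate number and array set as blocks, and were 2 to 3 without 1 array.

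Deviations of same-numbered arrays correlated from -0.739 to 0.845, with 7 of 19 pairs over 0.1. Between CKO and control of the same age they were 0.659, 0.586 and 0.845 at 2 weeks. At 4 weeks they were 0.793, -0.519 and 0.473. The 7 pairs were those whose arrays lay in the same array set. A pairing by number and the array set therefore cannot be told apart here. With a replicate block the calls were 2 at 4 weeks, 0 at 2 weeks, 0 for the difference between ages, 0 in control and 2 in CKO. The combined replicate and array set block was chosen after seeing the data. Calls over all probe sets at 4 weeks were 779, and 2760 under the array set block, 372 with the replicate block, 462 with the compared groups alone, 1007 within set 1 and 2015 within set 2. They were 342 without control replicate 2 and 403 without control replicate 3. For the difference between ages 66 became 683 with the block, 12 after median scaling and 4 with the replicate block. For age they moved from 42 to 369 in control and from 414 to 1771 in CKO with the block. Of 807 values under other settings 750 stayed on their side of the threshold, 46 gained and 11 lost it, and 0 called values changed sign. Most of the 807 were not called in the main fit and had no call to lose. Tnnt1 161361_s_at at 4 weeks lost its call in 4 of 13 settings and in 8 of 15 fits without 1 array. For Tnnt2 at 4 weeks these were 3 of 13 and 4 of 15. For the Tnni3 difference between ages they were 4 of 12 and 2 of 15. The cause of these shifts was not tested. With 3 control arrays per age, small differences of the dim skeletal probe sets are not resolved.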
